A study of Homo sapiens with 8 samples.

Results

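*CYP4F3* and the pseudogene *CR381653.2* were far lower in HEK293T cells carrying any of 3 CRISPR activators than in cells carrying dCas9 without an activation domain, and of the *CYP4F* relatives with data, *CYP4F2* was lower as well and *CYP4F22* did not pass the test. Control *CYP4F3* was at 3.89 and 2.84 CPM (read counts scaled to the same total over the listed genes in every library), and the 6 activator libraries lay between 0.0964 and 0.316 CPM. The genes were taken by symbol. *CYP4F3* and *CR381653.2* were chosen by their CPM in these same libraries, low with each activator relative to the control, and *CYP4F2*, *CYP4F11*, *CYP4F12* and *CYP4F22* were added as paralogs to ask whether they follow. Of these 6 genes, 4 have rows among the 19770 genes in every library, and *CYP4F11* and *CYP4F12* were not analysed here.

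RNA was measured at 72 h after transfection in HEK293T, an established human embryonic kidney cell line, in 4 groups of 2 libraries each. The control received dCas9, a Cas9 that binds DNA without cutting it, together with MCP-mCherry, a fluorescent protein fused to the MS2 coat protein that binds MS2 hairpins in the gRNA. CRISPR-DREAM was dCas9 with MCP-MSN, the SAM system (SAM) was dCas9-VP64 with MCP-p65-HSF1, and in dCas9-VPR the activation domains are part of the dCas9 protein itself. All 4 groups received a pool of gRNAs for *HBG1* and *HBG2*, with MS2 hairpins in all groups but dCas9-VPR, and all plasmids were delivered by transient transfection. The other 3 groups used 187.5 ng of each protein plasmid and dCas9-VPR used 375 ng of 1 plasmid, so plasmid make-up and activator cannot be told apart for that group. The labels do not say whether the 2 libraries of a group came from separate cultures, so p-values measure the spread between these libraries, which may be technical. Because RNA came from whole cultures, fewer cells expressing a gene and less RNA per cell cannot be told apart.

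The CYP4F proteins are cytochrome P450 enzymes of the endoplasmic reticulum that hydroxylate the terminal carbon of fatty acids and related lipids, using electrons passed on by P450 reductase. CYP4F3 is best known for inactivating leukotriene B4, a signal that attracts neutrophils, and is made in a neutrophil form and a liver form that differ by one alternative exon. CYP4F2 is a liver and kidney enzyme that hydroxylates arachidonic acid and vitamins E and K, and CYP4F22 is a skin enzyme that makes the very long omega-hydroxy fatty acids of the epidermal lipid barrier. *CR381653.2* is not a P450 gene. The files list it as an unprocessed pseudogene on chromosome 21.

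How far the rows can be told apart by reads was examined first, since *CYP4F3* and *CYP4F2* are close copies. *CYP4F3* lies at chr19:15640897-15662826 on the plus strand, *CYP4F2* at chr19:15878023-15898078 on the minus strand and *CYP4F22* at chr19:15508525-15552318 on the plus strand (hg38, positions of the files). Over their aligned coding sequences of the main Gencode release 44 transcripts, *CYP4F2* was 91.5% identical to *CYP4F3* and *CYP4F22* was 71.2% identical. The 2 paralogs without values here were closer to *CYP4F3* than *CYP4F22* was, at 86.1% for *CYP4F11* and 84.6% for *CYP4F12*. Reads were 75 bases long and paired. Of the 708 windows of that length that lie inside 1 coding exon, 102 were the same in *CYP4F3* and *CYP4F2*, and the median window differed at 3 bases. Over all annotated transcripts, 3.64% of the 75-base stretches of *CYP4F3* and 6.09% of those of *CYP4F2* occurred in the other gene, and 0 of the 2535 stretches of *CYP4F22* occurred in any other gene. A window in exon 5 is shown as an example of sequence from which a read could not be assigned to one of the pair, the first line from chr19:15647226-15647300 on the plus strand and the next from chr19:15892333-15892407 on the minus strand, with lower case marking identity.
CYP4F3: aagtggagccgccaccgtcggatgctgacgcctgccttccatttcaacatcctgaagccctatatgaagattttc
CYP4F2: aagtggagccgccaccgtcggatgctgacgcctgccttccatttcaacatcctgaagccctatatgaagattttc

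The coding exons of *CYP4F3* and *CYP4F2* were between 87.9% and 98.8% identical, except exon 3 of the main *CYP4F3* transcript, at 47.6%. That exon is the alternative one. Exon 3 of the main *CYP4F3* transcript (chr19:15645719-15645863) and the other exon that can take its place (chr19:15643907-15644051) are both 145 bases long and differ at 75 bases. The exon that can take its place differed from exon 3 of *CYP4F2* (chr19:15895506-15895650) at 12 of 145 bases, an identity of 91.7%. The 4 exons are shown because the 2 forms of *CYP4F3* part here, with capitals for bases that differ from the first line, and with exon 3 of *CYP4F22* read from chr19:15529709-15529853.
CYP4F3 main: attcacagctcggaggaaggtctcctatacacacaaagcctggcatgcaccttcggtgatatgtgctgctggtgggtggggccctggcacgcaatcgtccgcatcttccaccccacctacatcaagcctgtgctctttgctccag
CYP4F3 alternative: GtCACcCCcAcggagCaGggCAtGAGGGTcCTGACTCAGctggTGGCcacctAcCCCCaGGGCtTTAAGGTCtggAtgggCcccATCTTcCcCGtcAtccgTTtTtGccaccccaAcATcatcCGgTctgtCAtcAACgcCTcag
CYP4F2: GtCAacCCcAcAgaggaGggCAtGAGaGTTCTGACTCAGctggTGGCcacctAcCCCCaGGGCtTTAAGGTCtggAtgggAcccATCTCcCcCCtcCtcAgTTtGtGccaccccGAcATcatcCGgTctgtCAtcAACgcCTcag
CYP4F22: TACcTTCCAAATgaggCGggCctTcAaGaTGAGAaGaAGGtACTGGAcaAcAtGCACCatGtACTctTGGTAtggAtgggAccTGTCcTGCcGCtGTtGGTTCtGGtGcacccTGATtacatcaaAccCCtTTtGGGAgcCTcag

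The deposited values are per gene and therefore do not tell which of the 2 forms of *CYP4F3* the control cells made.

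In the control, *CYP4F3* was at 3.89 CPM in replicate 1 and 2.84 CPM in replicate 2, which correspond to about 121.9 and 87.0 reads. The CRISPR-DREAM libraries held 0.266 and 0.316 CPM, the SAM libraries 0.19 and 0.228 CPM and the dCas9-VPR libraries 0.143 and 0.0964 CPM. Both control libraries were above all 6 activator libraries, and no activator library held more than about 9.0 reads of the gene. The control mean of 3.36 ± 0.75 CPM (SD, n = 2) was 11.6 times the CRISPR-DREAM mean of 0.291 ± 0.035, 16.1 times the SAM mean of 0.209 ± 0.027 and 28.1 times the dCas9-VPR mean of 0.12 ± 0.033 CPM. With reads summed over each group, the exact 95% intervals of these ratios were 7.27 to 20.8, 9.35 to 28.7 and 13.9 to 65.4, covering counting error only. The 3 ratios share the same control libraries. Because *CYP4F3* was chosen for this fall, these values are a description and carry no test.

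*CR381653.2* was low in the same groups. The control libraries held 5.27 and 4.92 CPM, the CRISPR-DREAM libraries 0.325 and 0.197 CPM, the SAM libraries 0.283 and 0.277 CPM and the dCas9-VPR libraries 0.185 and 0.174 CPM. Again the control and the activator libraries did not overlap. The control mean was 19.5, 18.2 and 28.4 times the means with CRISPR-DREAM, SAM and dCas9-VPR, with counting intervals of 11.6 to 33.9, 11.4 to 29.7 and 15.8 to 54.9. This gene too was chosen for the fall, so no test is given. On the log2(CPM + 0.5) scale, which understates changes of low genes, the fitted log2 fold changes of *CR381653.2* were -2.88, -2.84 and -3.04 and were the lowest of all 15122 genes tested in each comparison. Those of *CYP4F3* were -2.27, -2.43 and -2.63, at ranks 5, 2 and 2 from the lowest.

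**Figure D1:**
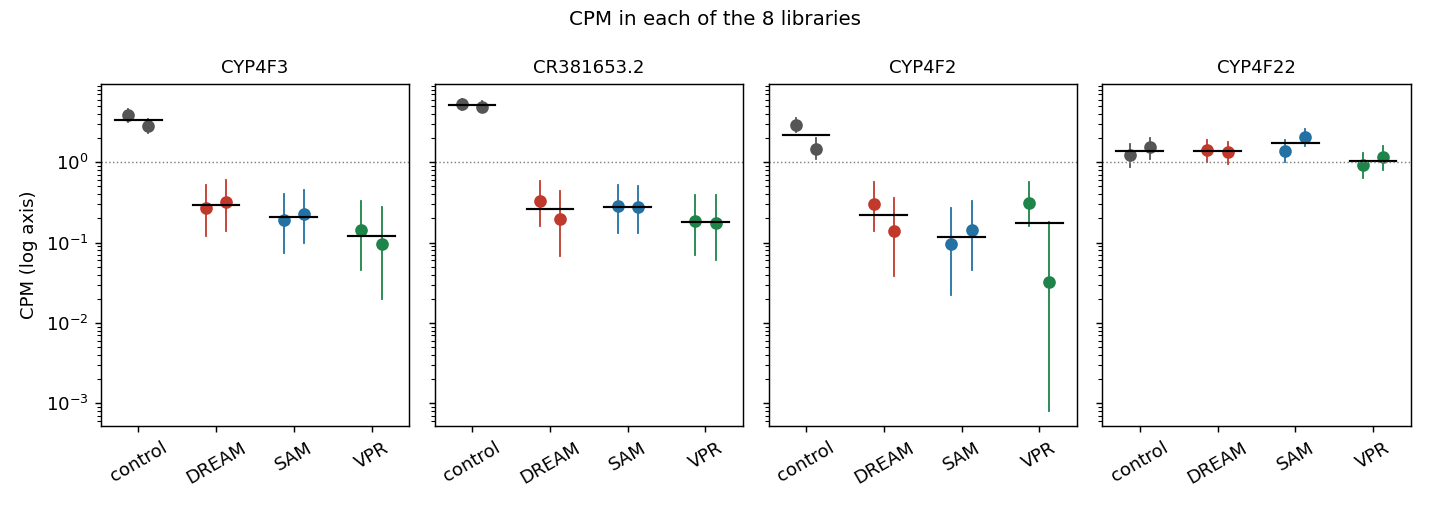
CPM of *CYP4F3*, *CR381653.2*, *CYP4F2* and *CYP4F22* in the 8 libraries (points, log axis) by group, with exact 95% Poisson intervals for counting error (vertical lines), group means (black bars) and 1 CPM (dotted line). For the first 3 genes both control libraries lie above 1 CPM and all 6 activator libraries lie at or below 0.325 CPM, whereas *CYP4F22* lies between 0.916 and 2.08 CPM throughout.

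*CYP4F2* was lower in every activator group than in the control. The control libraries held 2.94 and 1.47 CPM, about 92 and 45 reads. The CRISPR-DREAM libraries held 0.303 and 0.141 CPM of *CYP4F2*, the SAM libraries 0.096 and 0.142 CPM and the dCas9-VPR libraries 0.315 and 0.0322 CPM, and the lowest of these rests on about 1 read. All 6 activator libraries lay below both control libraries, as they did for 9.17% of all genes tested. The control mean of 2.2 ± 1 CPM (SD, n = 2) was 9.92, 18.5 and 12.7 times the means of 0.222 ± 0.12, 0.119 ± 0.033 and 0.174 ± 0.2 CPM with the 3 activators. With CRISPR-DREAM the log2 fold change was -1.86, with a standard error of 0.30 (limma adjusted p = 0.00148), and it was -2.07 with SAM (limma adjusted p = 0.000513) and -1.98 with dCas9-VPR (limma adjusted p = 0.00264). Genes were called where the fold exceeded 2 with a false discovery rate (FDR) under 0.05, and *CYP4F2* was called lower in all 3 comparisons. It entered this test through the control libraries alone, so these calls are a description, and a fit with no filter is given below. Of all genes tested, 0.503% were called lower with CRISPR-DREAM, 0.456% with SAM and 0.641% with dCas9-VPR, and 0.265% in all 3.

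The way genes entered the test bears on the *CYP4F2* result. Testing was limited to genes that reached 1 CPM in 2 or more libraries, and *CYP4F3*, *CR381653.2* and *CYP4F2* reached that level in the 2 control libraries only. There were 41 such genes, for all of which the 6 activator libraries lay below both control libraries, and 12 of them were called lower in all 3 comparisons. A gene that passes in this way had to be higher in the control. *CYP4F2* was also tested in a fit of 19744 genes with no filter on low values, which does not choose genes by group. There the limma adjusted p was 0.00101, 0.000371 and 0.00198 for CRISPR-DREAM, SAM and dCas9-VPR, and *CYP4F2* was called lower in each. Without either control library *CYP4F2* failed the filter and was not tested. A setting added after the data were seen left out 1 control library and kept the same 15122 genes. The log2 fold change then ranged from -2.47 to -1.46 over both libraries and all 3 comparisons. Those genes had been chosen with both control libraries, so this setting carries the same choice.

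*CYP4F22*, which shares no 75-base stretch with the other genes, did not pass the test in any comparison. The control libraries held 1.24 and 1.53 CPM, the CRISPR-DREAM libraries 1.42 and 1.33 CPM, the SAM libraries 1.4 and 2.08 CPM and the dCas9-VPR libraries 0.916 and 1.16 CPM. Control, CRISPR-DREAM and SAM libraries overlapped. The higher dCas9-VPR library held about 36 reads and the lower control library about 39, and their counting intervals, 0.81 to 1.6 and 0.88 to 1.7 CPM, overlapped. Its log2 fold change was 0.00 with CRISPR-DREAM (95% interval -0.44 to 0.43, limma adjusted p = 0.992), 0.23 with SAM (-0.20 to 0.67, adjusted p = 0.356) and -0.30 with dCas9-VPR (-0.73 to 0.14, adjusted p = 0.31). The lower ends of these intervals, -0.44, -0.20 and -0.73, are nearer to 0 than the upper ends of the *CYP4F2* intervals at -1.19, -1.40 and -1.31. The difference between *CYP4F2* and *CYP4F22* was not itself tested. Of the 2 paralogs tested 1 was thus called in each comparison, and it was the one that passed the filter through the control alone.

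**Figure D2:**
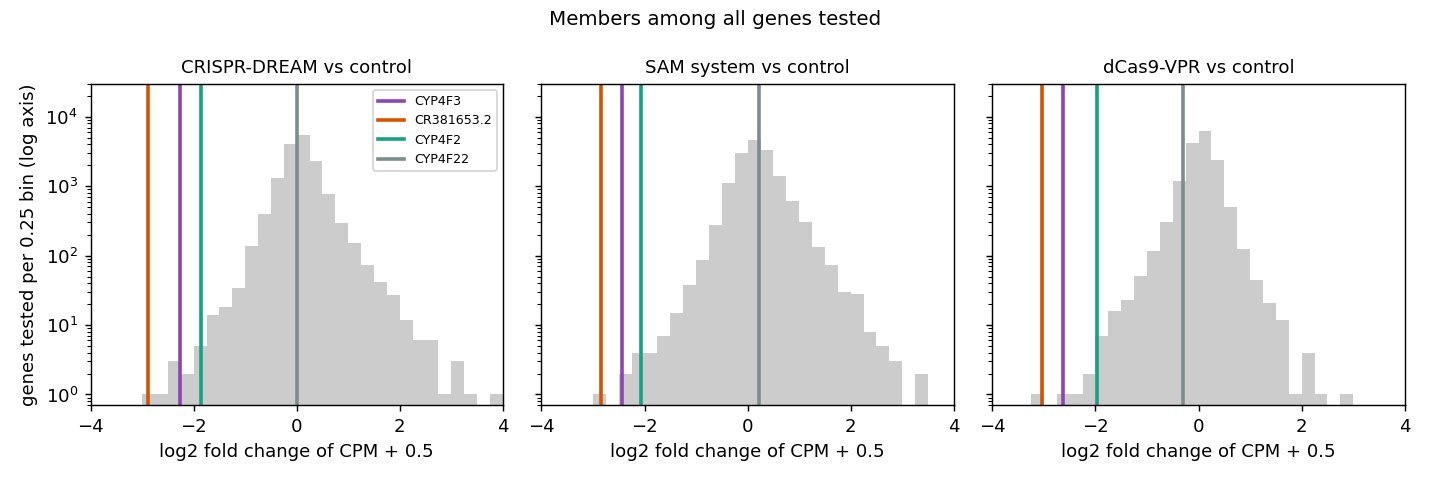
Log2 fold change of CPM + 0.5 relative to the control for all 15122 genes tested (grey bars, number per bin of 0.25, log axis) with the 4 genes as vertical lines, for CRISPR-DREAM, SAM and dCas9-VPR. *CR381653.2*, *CYP4F3* and *CYP4F2* lie in the lower tail in each plot. *CYP4F22* lies at 0.00, 0.23 and -0.30, at ranks 5958, 8892 and 1365 of 15122 from the lowest.

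Because *CYP4F3* and *CYP4F2* share stretches of sequence, their values were also added. The sum had 6.83 and 4.3 CPM in the control and between 0.129 and 0.57 CPM in the activator libraries. The control mean of the sum, which does not depend on how shared reads were divided between the pair, was 10.8, 17 and 19 times the means with CRISPR-DREAM, SAM and dCas9-VPR. Levels between genes were compared per kilobase of the main transcript. *CR381653.2*, with 768 bases, was the highest of the 4 in the control at 6.86 and 6.41 CPM per kb. *CYP4F2* was at 1.25 and 0.623 CPM per kb, *CYP4F3* at 0.77 and 0.562 CPM per kb and *CYP4F22* at 0.475 and 0.586 CPM per kb, and the values of these 3 neighbours in the order overlapped between libraries. In the activator groups *CYP4F22*, at 0.351 to 0.797 CPM per kb, was above *CYP4F3*, at 0.0191 to 0.0625, and above *CYP4F2*, at 0.0136 to 0.133 CPM per kb.

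Levels in the 3 activator groups were set side by side. Both *CYP4F3* and *CR381653.2* were chosen for being low with each activator and passed the filter through the control alone, so their differences between activators are a description, with no test. *CYP4F3* differed by a log2 fold change of 0.16 between CRISPR-DREAM and SAM (95% interval -0.30 to 0.61), by 0.35 between CRISPR-DREAM and dCas9-VPR (-0.10 to 0.81) and by 0.19 between SAM and dCas9-VPR (-0.26 to 0.65). The same 3 differences for *CR381653.2* were -0.04 (-0.45 to 0.37), 0.16 (-0.25 to 0.57) and 0.20 (-0.21 to 0.61). The values rest on about 3 to 10.3 reads per library. Neither gene was called in these comparisons, beside 0.721%, 0.734% and 2.31% of all genes called in either direction, and nothing is read from this count. *CYP4F22*, which had not been chosen for its level, was lower with dCas9-VPR than with SAM by 0.53 on the log2 scale (95% interval 0.10 to 0.97). It missed the threshold (limma adjusted p = 0.0647).

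*CR381653.2* carries sequence of *ANKRD20A* pseudogenes. The files place it at chr21:9369285-9376646 on the minus strand, its Gencode transcript has 4 exons, and 64% of its 694 stretches of 75 bases also occurred in transcripts of 8 other genes, among them *ANKRD20A5P*, *ANKRD20A9P* and *ANKRD20A21P*. Near copies lie on other chromosomes, the most complete on an assembled chromosome at chr22:11902849-11903973 with 321 matching stretches. A stretch from exon 1 that 4 other genes hold (chr21:9376460-9376534) and one from the start of the same exon that no other annotated transcript holds (chr21:9376571-9376645) are shown, both read on the minus strand.
CR381653.2 shared: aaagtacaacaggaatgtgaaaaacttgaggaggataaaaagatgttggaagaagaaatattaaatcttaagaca
CR381653.2 unshared: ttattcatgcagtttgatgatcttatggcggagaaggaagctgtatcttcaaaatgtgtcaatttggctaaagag

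A read of the first stretch matches several genes equally, and the row held no whole number of reads in any of the 8 libraries, within a tolerance of 0.05 reads. By the same measure *CYP4F22* was at whole reads in 8 libraries, *CYP4F2* in 6 and *CYP4F3* in 5. The level of *CR381653.2* is therefore uncertain. Rows that overlap stretches shared with *CR381653.2* were looked at after their values had been seen. *AC119751.3*, at chr4:49486926-49489555, had 0.879 and 1.05 CPM in the control libraries and at most 0.161 CPM in the activator libraries, with 2 of them listed at 0. *AC138776.1*, at chr22:11827523-11910359, had 0.511 and 0.766 CPM in the control and between 0.0892 and 0.387 CPM with activators. *ANKRD20A5P*, where only 4 matching stretches lie, had 0.33 and 0.359 CPM in the control and between 0.2 and 0.316 CPM with activators. All 3 rows had their highest 2 values in the control, as did 1664 of the 19770 genes with rows. For *ANKRD20A5P* the lower control value and the highest activator value lay within 1 read of each other. None of the 3 reached 1 CPM in 2 libraries, so none was tested.

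**Figure D3:**
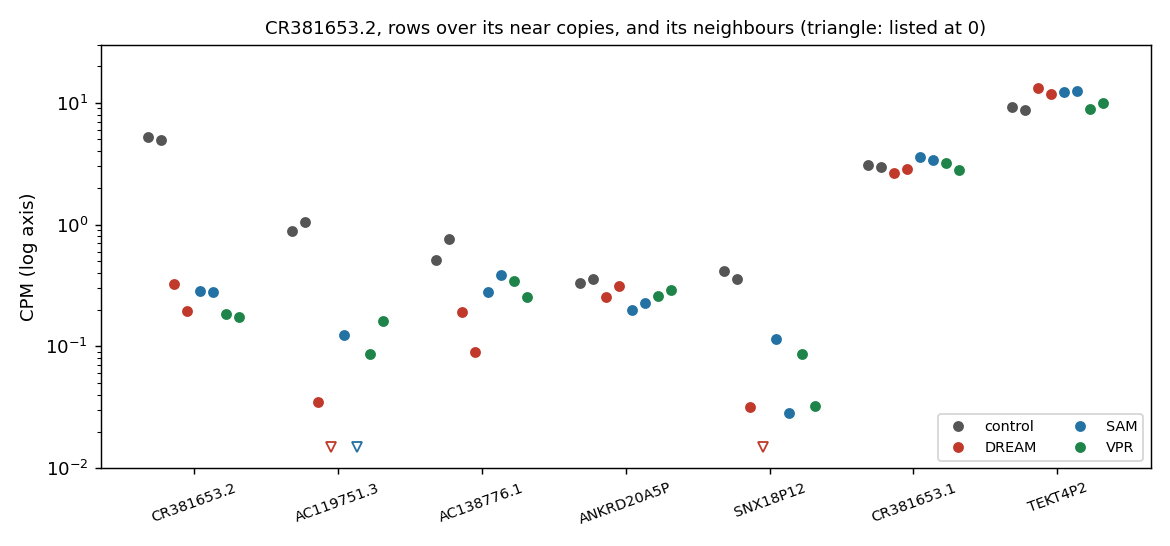
CPM (log axis) in the 8 libraries, coloured by group, of *CR381653.2*, of 3 rows that overlap stretches shared with it (*AC119751.3*, *AC138776.1*, *ANKRD20A5P*) and of 3 neighbours on chromosome 21 (*SNX18P12*, *CR381653.1*, *TEKT4P2*). Open triangles are values listed at 0. Control values are above those of the activators for *CR381653.2*, the 3 rows with shared stretches and *SNX18P12*, but not for *CR381653.1* or *TEKT4P2*. For *ANKRD20A5P* the margin is under 1 read.

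Genes within 500 kb of each locus were compared next. Of the 14 other genes with rows within 500 kb of *CYP4F3*, 9 were tested and 0 were called by limma in any comparison with the control, beside 2.55%, 4.34% and 1.1% of all genes called in either direction. With an unadjusted p below 0.05, 1 was higher and 1 lower with CRISPR-DREAM, 3 and 3 with SAM, and 2 and 2 with dCas9-VPR. Of all genes tested, 26.4%, 41.3% and 22.1% were higher and 13.7%, 11.4% and 12.1% were lower at that p with CRISPR-DREAM, SAM and dCas9-VPR. Their log2 fold changes lay between -0.45 and 0.44. The highest expressed, *TPM4*, which encodes a tropomyosin of the actin cytoskeleton, had 151 and 136 CPM in the control and between 148 and 179 CPM with activators. The adjusted p of *TPM4* was 0.207, 0.0657 and 0.0552 in the 3 comparisons (limma). *RPL23AP2*, a ribosomal protein pseudogene chosen after its values were seen as the closest tested neighbour, starts at -29.2 kb from the *CYP4F3* start, and its log2 fold changes were -0.11, -0.45 and -0.29, none called. *CYP4F22* and *CYP4F2*, not counted among the 9, start at -132 and 257 kb from the *CYP4F3* start.

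**Figure D4:**
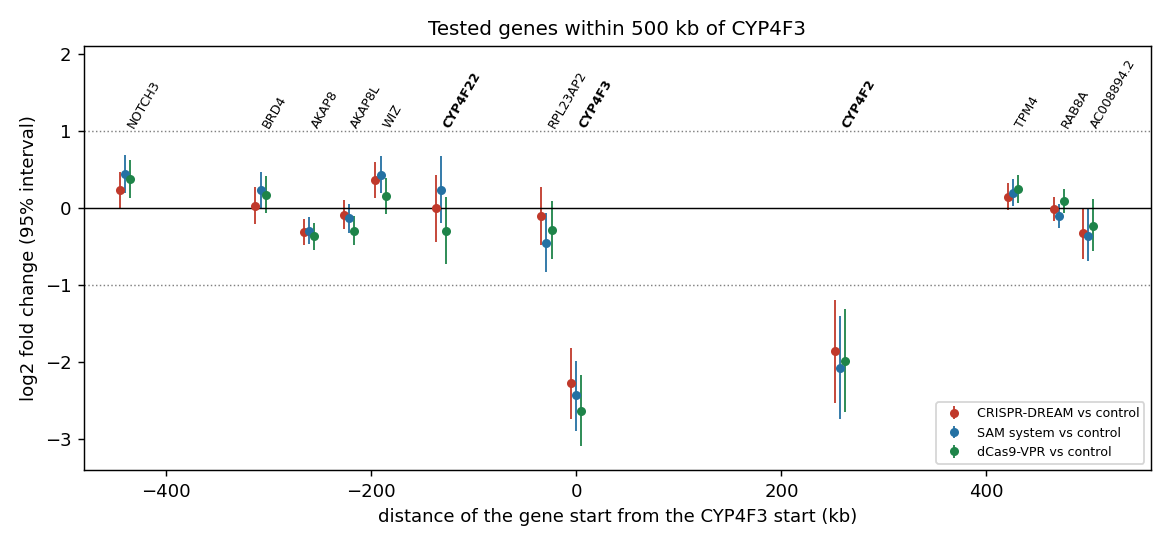
Log2 fold change relative to the control, with its limma 95% interval, of the tested genes within 500 kb of *CYP4F3* against the distance of their start from the *CYP4F3* start in kb, with the 3 activators in separate colours. *CYP4F3* (shown as a description) and *CYP4F2* lie below -1, the dotted line for a fold change of 2, and the other 10 genes, *CYP4F22* included, lie between -0.45 and 0.44.

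Within 500 kb of *CR381653.2*, 5 other genes have rows, 3 were tested and 0 were called by limma. Of all genes, 2.55%, 4.34% and 1.1% were called. With an unadjusted p below 0.05, 1 gene was higher with CRISPR-DREAM, 1 with SAM and 0 with dCas9-VPR. That stands beside 26.4%, 41.3% and 22.1% of all genes tested. With 3 genes tested, these counts cannot be told from the shares of all genes. *TEKT4P2*, a tektin pseudogene and the highest expressed, had 9.24 and 8.74 CPM in the control and between 8.94 and 13.1 CPM with activators, with a log2 fold change of 0.45 with CRISPR-DREAM (limma adjusted p = 0.00909) and a fold below 2. Both genes nearest to *CR381653.2* were looked at after their values had been seen. The opposite-strand lncRNA *CR381653.1* had 3.06 and 2.97 CPM in the control and between 2.63 and 3.6 CPM with activators. *SNX18P12*, a processed pseudogene on the same strand as *CR381653.2*, had 0.415 and 0.359 CPM in the control libraries and at most 0.114 CPM with activators, and was too low to be tested.

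Other P450 genes were compared next. Of the 3 other rows of the *CYP4* family, 2 were tested and 0 were called by limma in any comparison. With an unadjusted p below 0.05, the gene *CYP4V2* was lower and the lncRNA *CYP4F26P* higher in all 3 comparisons with the control. At that p, 26.4%, 41.3% and 22.1% of all genes tested were higher and 13.7%, 11.4% and 12.1% lower. *CYP4V2*, a fatty acid hydroxylase active in the retina, had 13.6 and 13.1 CPM in the control and between 8.21 and 10.3 CPM with activators. Its log2 fold change was -0.55, -0.41 and -0.62 with CRISPR-DREAM, SAM and dCas9-VPR (limma adjusted p = 0.00273, 0.00841 and 0.00348), and all 6 activator libraries were below both control libraries, with a fold below 2. *CYP4F26P* and *CYP4X1* are named after their values were seen. *CYP4F26P* had 0.511 and 0.294 CPM in the control and between 0.737 and 1.17 CPM with activators (limma adjusted p = 0.0627, 0.0532 and 0.0589). It reached 1 CPM only in CRISPR-DREAM replicate 1 and dCas9-VPR replicate 1. It was thus tested only because activator libraries were high, which favours a higher value with activators. *CYP4X1* had 0.383 and 0.457 CPM in the control and between 0.0643 and 0.341 CPM with activators, and was not tested. Among P450 genes outside the *CYP4* family, 14 of 19 rows were tested and 0 were called by limma. At an unadjusted p below 0.05, 4, 6 and 1 were higher and 2, 1 and 1 lower, beside the shares of all genes at that p given above. With 2.55%, 4.34% and 1.1% of all genes called, a count of 0 among 14 is near the background. The highest of them, *CYP51A1* of cholesterol synthesis, had 112 and 109 CPM in the control and between 96.8 and 119 CPM with activators.

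The genes that supply and use what CYP4F enzymes act on were given by lists. In the leukotriene list, 13 of 16 genes have rows and 8 were tested. *DPEP1*, a dipeptidase that converts leukotriene D4, was at 1.71 and 2.21 CPM with CRISPR-DREAM compared with 0.734 and 0.359 CPM in the control. It was called higher there (log2 fold change 1.25, limma adjusted p = 0.00213), beside 2.04% of all genes called higher. *DPEP1* reached 1 CPM in the CRISPR-DREAM libraries only, so it entered the test through the group where it was high. Its call is therefore given as a description. It was at 0.8 and 0.768 CPM with SAM and at 0.601 and 0.513 CPM with dCas9-VPR, where 3.89% and 0.463% of all genes were called higher, and was not called there (limma adjusted p = 0.256 and 0.922). *LTA4H*, the enzyme that makes leukotriene B4, had 143 and 137 CPM in the control and between 147 and 177 CPM with activators, and was not called. Next were a list of 7 P450 electron donors and partner proteins, 10 tested genes of omega oxidation and 5 genes of the vitamin K cycle. Of these, 0 were called by limma in any comparison with the control. Their counts with an unadjusted p below 0.05 with CRISPR-DREAM, SAM and dCas9-VPR were, in turn, 3, 4 and 3 higher and 1, 1 and 0 lower of 7 for electron transfer. They were 5, 7 and 6 higher and 0 lower of 10 for omega oxidation, and 1, 3 and 4 higher and 0, 1 and 0 lower of 5 for vitamin K. These counts stand beside the 26.4%, 41.3% and 22.1% of all genes that were higher and the 13.7%, 11.4% and 12.1% that were lower at that p, and the lists themselves were not tested. Median log2 fold changes of these 3 lists ranged from 0.08 to 0.30, beside medians over all genes tested of 0.06, 0.16 and 0.06. *PGRMC1*, a heme-binding partner of P450 enzymes, lay between 265 and 317 CPM in all libraries, *ALDH9A1*, an aldehyde dehydrogenase, between 158 and 190 CPM, and *VKORC1*, the vitamin K epoxide reductase, between 188 and 243 CPM.

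The cell line was checked against markers. Of 10 markers of HEK293T cells, 9 have rows and all reached 1 CPM. At an unadjusted p below 0.05, 5 of the 9 were higher with each activator and 3, 2 and 0 were lower with CRISPR-DREAM, SAM and dCas9-VPR. Of all genes tested, 26.4%, 41.3% and 22.1% were higher and 13.7%, 11.4% and 12.1% lower at that p, and the markers as a set were not tested. *VIM* was the highest, at 396 and 344 CPM in the control and between 267 and 440 CPM with activators. *KRT8*, a keratin of simple epithelia, was the 1 marker called, higher with CRISPR-DREAM and, at 2.08-fold, with SAM, beside 2.04% and 3.89% of all genes. The control libraries held 50.2 and 45.2 CPM of it, the CRISPR-DREAM libraries 113 and 107 CPM and the SAM libraries 105 and 95.1 CPM. With dCas9-VPR *KRT8* was at 92.1 and 78.5 CPM, 1.78-fold the control (limma adjusted p = 0.000375), and missed only the fold threshold. Markers of liver, neutrophils and skin, where *CYP4F* genes are known to act, were summed as well. Of 8 hepatocyte markers 2 have rows, with a summed level of 0.485 to 0.67 CPM in the control and 0.315 to 0.484 CPM with activators. Of 9 neutrophil markers 3 have rows, with a summed level of 1.02 to 1.08 CPM in the control and 1.23 to 2.84 CPM with activators, and *PRTN3*, a neutrophil protease, was the highest of them. *ALB*, *MPO* and *ELANE*, which define hepatocytes and neutrophils, were not analysed here. Of 6 keratinocyte markers 2 have rows, mainly *KRT10*, with a summed level of 17.8 to 18.3 CPM in the control and 13.7 to 25.4 CPM with activators. The hepatocyte sums were under 1 CPM, and the lowest control sum and the highest activator sum lay within 1 read of each other. Neutrophil sums were higher with activators than in the control. The part of other cell types in the fall of the P450 genes was not tested.

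The genes whose profile over the 8 libraries was most like that of *CYP4F3* were ranked by the root mean square distance between centred log2(CPM + 0.5) values. Of 15121 other genes, *CR381653.2* was the nearest at a distance of 0.25 and *CYP4F2* came 4th at 0.30, whereas *CYP4F22* came 4964th at 1.08. *CYP4F3* and *CR381653.2* were chosen for the same fall, so their likeness restates that choice. The 5 nearest genes beyond the list were *ZNF767P* at 0.27, *PVT1* at 0.28, *PLK2* at 0.33, *LRP5L* at 0.38 and *AC093866.1* at 0.39. These 5 were picked for likeness, so no test is given. *PLK2*, a polo-like kinase, had 21.6 and 20.5 CPM in the control and between 2.77 and 4.52 CPM with activators. The lncRNA *PVT1* had 23.2 and 22.5 CPM in the control and between 4.86 and 6.03 CPM with activators. The zinc finger pseudogene *ZNF767P* had 16.1 and 15 CPM in the control and between 2.38 and 3.51 CPM with activators. These 3 genes rest on more reads than *CYP4F3* and none of their activator libraries overlapped the control. *LRP5L* lay at 6.12 and 5.09 CPM and the lncRNA *AC093866.1* at 5.93 and 4.51 CPM in the control, and they lay at 1.35 to 1.65 CPM and 0.808 to 1.51 CPM with activators.

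**Figure D5:**
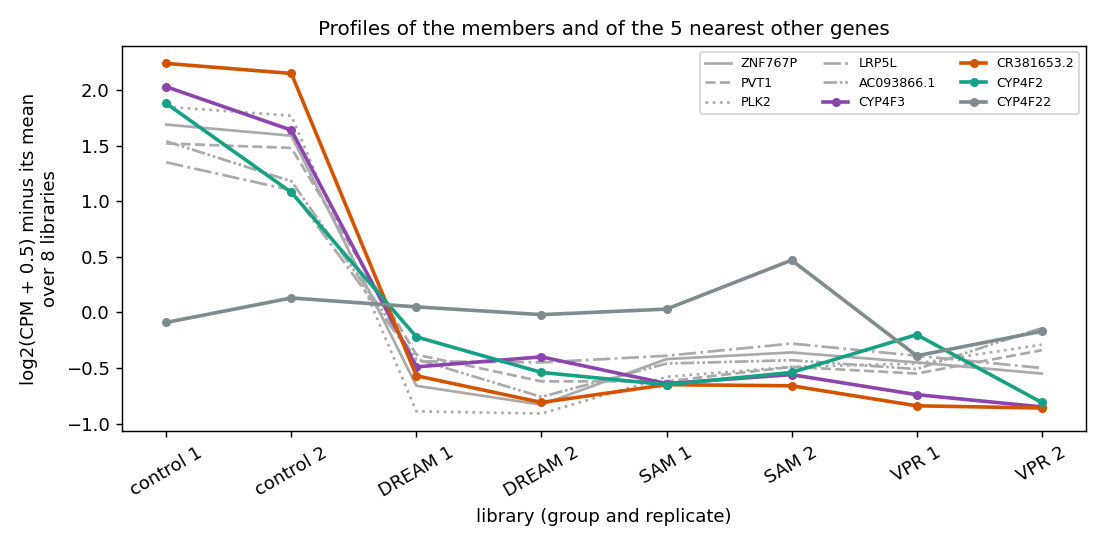
Log2(CPM + 0.5) minus its mean over the 8 libraries, by library, for *CYP4F3*, *CR381653.2*, *CYP4F2* and *CYP4F22* (coloured lines with points) and for the 5 other genes nearest to *CYP4F3* (grey lines). All but *CYP4F22* step down from the 2 control libraries to the 6 activator libraries, and *CYP4F22* stays within about 0.5 of its mean.

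The spacing of low CPM values gave an estimated depth of 28.5 to 35.2 M reads for each library, so that 3 reads corresponded to 0.085 to 0.11 CPM. The control libraries, at 31.3 and 30.7 M reads, lay within the range of the activator libraries. Other library measures differed between the libraries. Listed at 0 were 402 and 410 genes in the control libraries and 162 to 341 in the activator libraries. The 5.8S rRNA row was at 10.4 and 11.4 CPM in the control, at 55.8 and 35.6 CPM in the CRISPR-DREAM libraries, at 65.2 and 10.9 CPM in the SAM libraries and at 64.9 and 16.8 CPM in the dCas9-VPR libraries. SAM replicate 2 thus lay between the control libraries in this row, so the row did not separate the groups. The part of these differences in the fall of *CYP4F3*, *CR381653.2* and *CYP4F2* was not tested.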

How the data were processed

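RNA-seq was carried out in duplicate for 4 groups of HEK293T cells. The labels name polyA RNA, whereas the methods of the study name a total RNA kit that keeps strand, with paired 75-base reads. The authors aligned reads to hg38 with Gencode release 36 by STAR 2.7.3a, used a Bayesian method to quantify transcripts, and deposited 1 CPM value per gene and library, with 0.0001 added to each. How shared reads and strand were treated, and how the listed genes were chosen, is not given in the sources used here. Such choices could affect the values of genes that share sequence.

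The members and gene lists were chosen with earlier results of these data known. Named genes are the members, the called genes of each list or its highest expressed gene, and the 5 nearest profiles. For any other gene the text says that its values were seen first. For the 15122 genes that reached 1 CPM in 2 or more libraries, limma 3.58.1 under R 4.3.3 (trend, robust) was applied to log2(CPM + 0.5), with 4 group means, 4 residual degrees of freedom and Benjamini-Hochberg adjustment over all genes tested. The threshold is the one the authors applied with DESeq2. An exact permutation test of 2 against 2 libraries cannot reach 0.05 and was not used. Between 65.0% and 69.6% of low values were whole reads, so no count model was run. Read numbers are CPM over the smallest step. Intervals of CPM values and of control ratios cover counting error only. Those of log2 fold changes are limma intervals, which use the spread between libraries. Sequences came from hg38 and Gencode release 44, read with Python 3.11.15 and Biopython 1.88. The fit was tested on simulated data.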

Additional observations from a re-analysis of the deposited data

How the results depend on the processing

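The direction and call of *CYP4F2* held under every alternative that could be fitted with it in the test. Pseudocounts moved its log2 fold change to between -3.32 and -2.81 (0.1) and between -1.48 and -1.35 (1). The fitted values of the other 2 low genes moved likewise, in the order CRISPR-DREAM, SAM, dCas9-VPR, to -3.13, -3.47 and -3.97 (0.1) and -1.75, -1.84 and -1.95 (1) for *CYP4F3*, and to -3.87, -3.77 and -4.22 (0.1) and -2.27, -2.25 and -2.37 (1) for *CR381653.2*. When either control library was left out with the filter on low values applied to the 7 left, 0 paralogs were called in any comparison, because *CYP4F2* then failed the filter, so leaving out 1 library gave 0 to 1 paralogs called. With the same 15122 genes kept, added after seeing the data, the log2 fold change of *CYP4F2* ranged from -2.47 to -1.46. Those genes had been chosen with both control libraries. *CYP4F22* was never called, and its log2 fold change with CRISPR-DREAM, 0.00, ranged from -0.11 to 0.11 when 1 library was left out (0.11 without control replicate 2, 0.03 without CRISPR-DREAM replicate 2). That of *CR381653.2* between CRISPR-DREAM and the SAM system, -0.04, ranged from -0.16 to 0.08 (0.08 without CRISPR-DREAM replicate 2). Over all alternatives 173 single-gene values held, 21 moved and 4 changed sign, and 157 counts held and 26 moved. Held here allows a sizeable change in a count, as with CRISPR-DREAM under both pseudocounts given below.

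Counts of all genes called (385, 657 and 167 relative to the control for CRISPR-DREAM, SAM and dCas9-VPR, and 109, 111 and 349 for CRISPR-DREAM against the SAM system, CRISPR-DREAM against dCas9-VPR and the SAM system against dCas9-VPR) moved most. With no fold threshold they were 4236, 6743, 2666, 1623, 1983 and 4522, and 1 other *CYP4* gene (*CYP4V2*) was then called in each comparison with the control. A pseudocount of 1 gave 406 and 98 for the SAM system and dCas9-VPR and 50, 51 and 184 between activators. A pseudocount of 0.1 gave 309 for dCas9-VPR, 188, 195 and 580 between activators, and 1 other *CYP4* gene (*CYP4F26P*) called with dCas9-VPR. That gene passed the filter through activator libraries alone. Leaving out 1 library gave 369 to 444, 582 to 712, 133 to 211, 9 to 134, 86 to 144 and 243 to 381, the 9 without SAM system replicate 2. The cause was not tested.

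With median-of-ratios scaling the median log2 fold change of all genes with SAM was -0.01 in place of 0.16, and 22.7% in place of 10.5% of its calls were lower, with no member's call changed. Same-numbered replicates deviated together (correlations of replicate differences 0.33 to 0.57), but the labels do not say that they share a batch. A replicate block, with replicate number as a term, gave 391, 660 and 171 genes called relative to the control and changed no call of the members. Depth limits comparisons between activators, where *CYP4F3*, *CR381653.2* and *CYP4F2* rest on at most about 11 reads per library.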
